A study of Mus musculus with 12 samples.

Results

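The Slc2a genes encode the GLUT proteins, the carriers that let glucose and other hexoses cross cell membranes. Their expression was read in cartilage cells (chondrocytes) isolated from mouse ribs, from the 10 rows of the gene table whose symbols are Slc2a1, Slc2a3, Slc2a4, Slc2a5, Slc2a6, Slc2a8, Slc2a9, Slc2a10, Slc2a12 and Slc2a13, out of 17922 genes listed. The table lists 12 Slc2a genes in all, and the other two, Slc2a2 and Slc2a7, are described only for their detection. The study asked what reduced glycolysis, and reduced acetyl-CoA in the cytoplasm, do in the developing skeleton. The LDH knockout came from Col2-Cre:Ldha(fl/fl):Ldhb+/- mice at postnatal day 5 and the Acly knockout from Col2-Cre:Acly(fl/fl) embryos at E18.5. Each group held 3 samples, and the control samples of both sets were littermates whose genotype was not given further. The strain was C57BL/6-dominant mixed in all 4 groups. Col2-Cre is a recombinase driven by a collagen II promoter, so the floxed genes were to be deleted in cells that use it, cartilage cells above all. Which other cells of the dissected rib it reached was not tested. The Ldhb allele was written as a plain heterozygous allele. The cells were released with collagenase and cultured overnight before RNA was taken. Nothing in the labels says whether each sample came from a separate animal, so the tests measure only the spread between these samples.

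Most GLUT proteins are passive carriers, and they differ in their substrate, affinity and place in the cell. Slc2a1 (GLUT1) gives many cell types their basal glucose uptake and is the main glucose carrier described in growth plate cartilage, a tissue without blood vessels that depends on glycolysis. Slc2a3 (GLUT3) is a high-affinity glucose carrier best known in neurons, and Slc2a4 (GLUT4) is the carrier that insulin moves to the surface of muscle and fat cells. Slc2a5 (GLUT5) carries fructose, Slc2a9 (GLUT9) urate, and Slc2a13 (HMIT) myo-inositol together with protons. Slc2a6 and Slc2a8 (GLUT6 and GLUT8) reside mainly on membranes inside the cell, and Slc2a10 and Slc2a12 (GLUT10 and GLUT12) are less well characterised carriers, the former known for its loss in arterial tortuosity syndrome.

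The stretches of 250 bases before the annotated start of 3 of these genes are shown because Slc2a1 had the highest level and Slc2a5 and Slc2a6 passed the test in the LDH knockout. They were taken from RefSeq for assembly GRCm38.p6, which held promoters for 8 of the 10 genes, and are written on the gene's own strand. Capitals mark the letters ACGTG, the core of the hypoxia response element, and GGGCGG, the GC box, on either strand (CACGT and CCGCCC when reversed).
Slc2a1, chr4:119108495-119108744 (plus strand): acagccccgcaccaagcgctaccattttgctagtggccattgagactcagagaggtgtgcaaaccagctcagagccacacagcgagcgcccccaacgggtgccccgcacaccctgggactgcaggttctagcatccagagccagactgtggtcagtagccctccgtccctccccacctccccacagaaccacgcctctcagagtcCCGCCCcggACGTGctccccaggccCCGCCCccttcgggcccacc
Slc2a5, chr4:150119094-150119343 (plus strand): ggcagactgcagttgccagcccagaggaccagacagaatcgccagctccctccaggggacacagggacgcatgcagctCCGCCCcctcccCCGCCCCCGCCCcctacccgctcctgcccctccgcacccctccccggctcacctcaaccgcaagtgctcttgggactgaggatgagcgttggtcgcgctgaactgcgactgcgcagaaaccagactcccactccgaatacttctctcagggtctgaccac
Slc2a6, chr2:27027999-27028248 (minus strand): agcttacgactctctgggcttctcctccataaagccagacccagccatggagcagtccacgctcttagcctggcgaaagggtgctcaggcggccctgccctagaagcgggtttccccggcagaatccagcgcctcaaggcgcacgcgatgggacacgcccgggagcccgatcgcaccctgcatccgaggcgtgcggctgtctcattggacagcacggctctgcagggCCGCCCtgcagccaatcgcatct
The window of Slc2a1 held 1 ACGTG and 2 GGGCGG, that of Slc2a5 held 3 GGGCGG and that of Slc2a6 held 1 GGGCGG. In the same window, ACGTG was present in 16.6% and GGGCGG in 32.7% of 32851 RefSeq promoters. CACGTG, which contains ACGTG and is present in 6.02% of them, and TATAAA (reversed TTTATA), present in 12.4%, were not found in the windows of the 8 genes. These matches describe the letters only.

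Libraries held 26362407 to 28154143 expected counts. Ldha, the targeted lactate dehydrogenase gene, had 79.3, 88.8 and 92.1 counts per 1000000 (CPM) in the LDH knockout libraries against 851, 792 and 894 in their controls, and Acly had 83.0, 52.5 and 87.0 CPM in the Acly knockout against 197, 192 and 202. Ldhb was not lower in the LDH knockout, at 14.6, 16.4 and 14.2 CPM against 12.3, 11.3 and 11.4. All 10 chondrocyte markers examined, Col2a1, Acan and Sox9 among them, were present in the Acly set. In the LDH set 9 of them were abundant enough to be tested. The exception, Matn1, had 5, 7 and 3 counts in the LDH knockouts and 3, 0 and 4 in the LDH controls. One library, Acly knockout replicate 2, stood apart: on the first principal component of all 12 libraries (73.4% of the variance) it lay at 35.4, and the other 5 libraries of its set between 60.4 and 70.8. Summed Y-linked signal was at most 0.0367 CPM in every LDH knockout library, against 93.0, 102 and 0.590 CPM in LDH controls 1, 2 and 3. The Acly knockouts had 0.0755, 74.3 and 82.8 CPM of this signal and the Acly controls 0.375, 121 and 2.83 CPM.

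All 10 genes were detected, and Slc2a1 was far above the rest. Detection was taken as more than 3 counts, which is 0.107 to 0.114 CPM at these depths, and covers counting error only. By that rule 9 genes were detected in all 12 libraries. Slc2a4 was detected in 11, with 8, 7 and 3 counts in LDH controls 1, 2 and 3. Slc2a2, the carrier of liver and pancreatic beta cells, reached more than 3 counts in 7 libraries and at most 9. Slc2a7 had a single count in 1 library, and neither gene was abundant enough to be tested. At a stricter level of at least 1 FPKM (fragments per kilobase of transcript and per 1000000 fragments), Slc2a1, Slc2a8 and Slc2a10 passed in all 12 libraries, Slc2a3 in 11, Slc2a5 in 9, Slc2a6 in 7, Slc2a13 in 6 and Slc2a4 in 1. Slc2a9 and Slc2a12 stayed below 1 FPKM in all 12 libraries, with ranges of 0.29 to 0.85 and 0.15 to 0.39.

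FPKM divides by transcript length, so levels of different genes can be set side by side on it. Slc2a1 had 136, 151 and 136 FPKM in LDH controls and 174, 164 and 193 FPKM in Acly controls, which put its mean at place 556 and place 413 among all listed genes of those groups. In LDH controls the next were Slc2a8 (4.69 ± 0.29 FPKM, SD, n = 3) and Slc2a5 (4.42 ± 0.23), whose libraries overlapped. Below them came Slc2a10 (2.68 ± 0.25) and Slc2a6 (2.48 ± 0.22), which also overlapped, and then Slc2a3 (1.12 ± 0.13), Slc2a13 (0.73 ± 0.19), Slc2a9 (0.44 ± 0.14), Slc2a12 (0.29 ± 0.09) and Slc2a4 (0.083 ± 0.031), with overlap between Slc2a13 and Slc2a9 and between Slc2a9 and Slc2a12. In Acly controls Slc2a5 stood second at 10.1 ± 1.2 FPKM, with every library above those of Slc2a8 (6.14 ± 0.98). The order continued with Slc2a10 (3.39 ± 0.19), Slc2a13 (2.14 ± 0.24), Slc2a3 (1.68 ± 0.06), Slc2a6 (1.38 ± 0.38), Slc2a9 (0.70 ± 0.14), Slc2a4 (0.47 ± 0.09) and Slc2a12 (0.30 ± 0.07), and of these neighbours Slc2a3 and Slc2a6 overlapped.

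**Figure D1:**
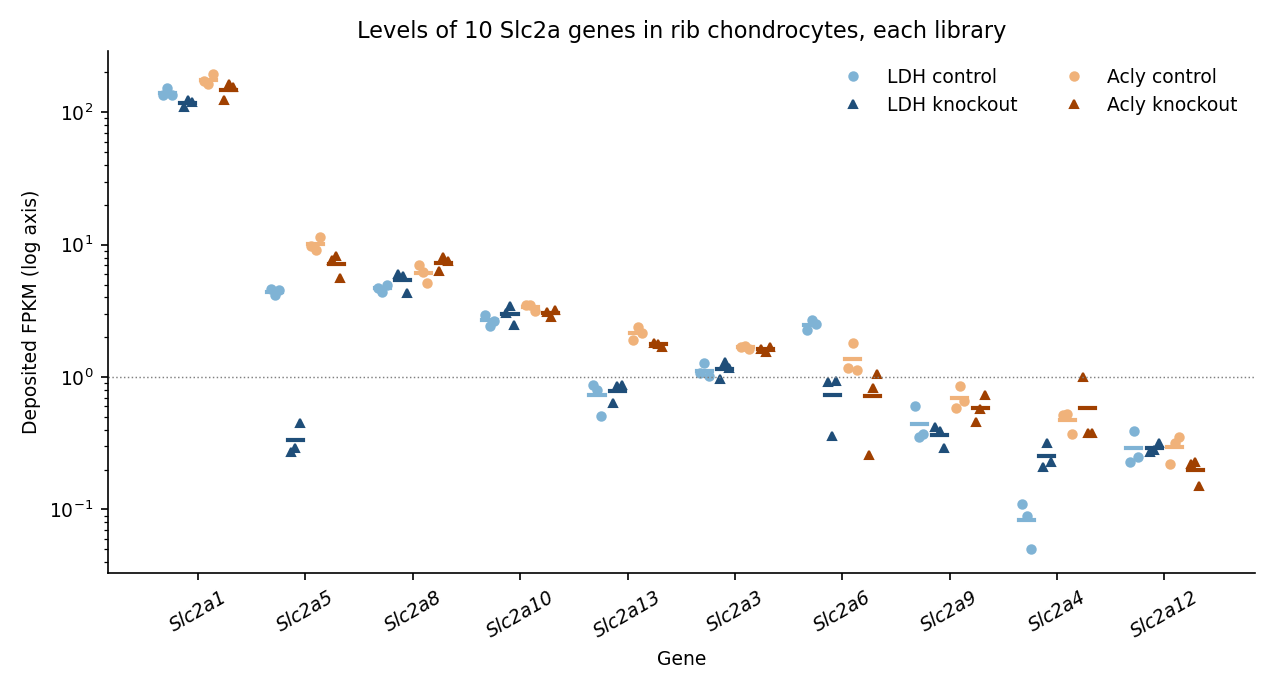
FPKM of the 10 Slc2a genes on a log axis, with 1 point per library, a colour per group, short lines at the group means and a dotted line at 1 FPKM. Slc2a1 lies between 110 and 193 FPKM in every library, whereas Slc2a9 and Slc2a12 lie below 1 FPKM in all 12.

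The deposited TPM values (transcripts per 1000000 transcripts) of the 10 genes summed to 277 to 321 in LDH controls and 362 to 408 in Acly controls. Of that sum Slc2a1 made up 88.7% to 90.1% in LDH controls, 89.6% to 91.5% in LDH knockouts, 86.1% to 88.1% in Acly controls and 84.6% to 87.5% in Acly knockouts. Slc2a1 alone thus gave most of the transcripts of the set in every library. The place of the fructose carrier among the other 9 genes differed more. Slc2a5 made up 25.1% to 26.8% of their TPM in LDH controls and 2.12% to 4.09% in LDH knockouts, against 34.5% to 44.1% and 25.3% to 33.9% in Acly controls and knockouts.

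In the LDH knockout, transcripts of the fructose carrier Slc2a5 and of Slc2a6 fell, and those of the main glucose carrier Slc2a1 were slightly lower without passing the test. The counts were 332, 295 and 319 for Slc2a5 in the 3 control libraries and 21, 20 and 31 in the 3 knockout libraries, which is 11.7, 10.4 and 11.98 CPM against 0.762, 0.745 and 1.13 CPM. The groups lay far apart, and the knockout libraries were still above the floor of 3 counts. Slc2a5 fell by 3.68 on the log2 scale (SE 0.20, 95% interval -4.12 to -3.24), which is 12.8-fold lower, with an adjusted p of 3.62e-05 by edgeR's quasi-likelihood test. By FPKM it moved from rank 3 among the 10 genes in LDH controls to rank 8 in the knockout, at 0.34 ± 0.10 FPKM, where its libraries overlapped those of Slc2a9 and Slc2a12. On log2(FPKM + 1), a scale that shrinks changes of low genes, its difference was -2.02 (adjusted p = 4.30e-05 by limma). In bulk samples fewer cells of a type and less RNA per cell cannot be told apart.

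Slc2a6 had 4.57, 5.30 and 5.11 CPM in LDH controls and 1.89, 0.745 and 1.83 CPM in LDH knockouts. All knockout libraries were below all controls, and knockout replicate 2 was the lowest. Slc2a6 fell by 1.74 on the log2 scale (SE 0.30, 95% interval -2.41 to -1.07), which is 3.34-fold lower, with an adjusted p of 0.0196 by edgeR. This call was lost without LDH control 2 (adjusted p = 0.0539 by edgeR) and without LDH control 3 (adjusted p = 0.0687), with differences of -1.70 and -1.72. On log2(FPKM + 1) its difference was -1.02 (adjusted p = 0.0152 by limma).

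These 2 of 10 genes, both lower, were all that passed the test, where 2.49% of 13321 genes tested passed it and 1.07% passed it downward. The median log2 difference of the 10 genes was -0.02, beside 0.01 for all genes tested. Knockout and control libraries did not overlap for 4 of the 10, as for 24.3% of all genes tested. Those 4 were Slc2a5, Slc2a6, Slc2a1 and Slc2a4, the same 4 that had an unadjusted p under 0.05 by edgeR, as 19.6% of all genes tested did.

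Among the glucose carriers, Slc2a1 had 336, 371 and 345 CPM in LDH controls and 276, 316 and 296 CPM in LDH knockouts. The highest knockout library was below the lowest control by a small gap. The difference was -0.25 on the log2 scale (SE 0.09, 95% interval -0.44 to -0.05), and its adjusted p of 0.156 by edgeR did not pass. Slc2a4, the insulin-responsive carrier, was near the detection floor in LDH controls at 0.281, 0.247 and 0.113 CPM, and at 0.545, 0.820 and 0.622 CPM in LDH knockouts. Its summed counts were 18 in controls and 54 in knockouts, a ratio per total of 3.03 (95% exact interval 1.75 to 5.50, counting error only). The log2 difference was 1.60 (SE 0.44, 95% interval 0.62 to 2.58, adjusted p = 0.0893 by edgeR). Its size depended on the scale: it was 0.95 on log2(FPKM + 0.1), 0.21 on log2(FPKM + 1) and 2.63 with the Y-linked covariate, with adjusted p of 0.0746 and 0.117 by limma and 0.214 by edgeR. Slc2a3 had 4.18, 4.94 and 4.09 CPM in LDH controls and 4.03, 5.22 and 4.46 CPM in LDH knockouts, so that the groups overlapped, with a log2 difference of 0.05 (95% interval -0.33 to 0.43).

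The other 5 genes overlapped between LDH knockout and control libraries. Their log2 differences were 0.21 for Slc2a8 (95% interval -0.14 to 0.56), -0.21 for the urate carrier Slc2a9 (-0.89 to 0.46), 0.17 for Slc2a10 (-0.18 to 0.53), -0.10 for Slc2a12 (-0.76 to 0.57) and 0.14 for the inositol carrier Slc2a13 (-0.35 to 0.63), with adjusted p of 0.491 to 0.891 by edgeR. The intervals of Slc2a9 and Slc2a12 are wide at 28 to 79 and 11 to 35 counts per library over all 12 libraries.

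**Figure D2:**
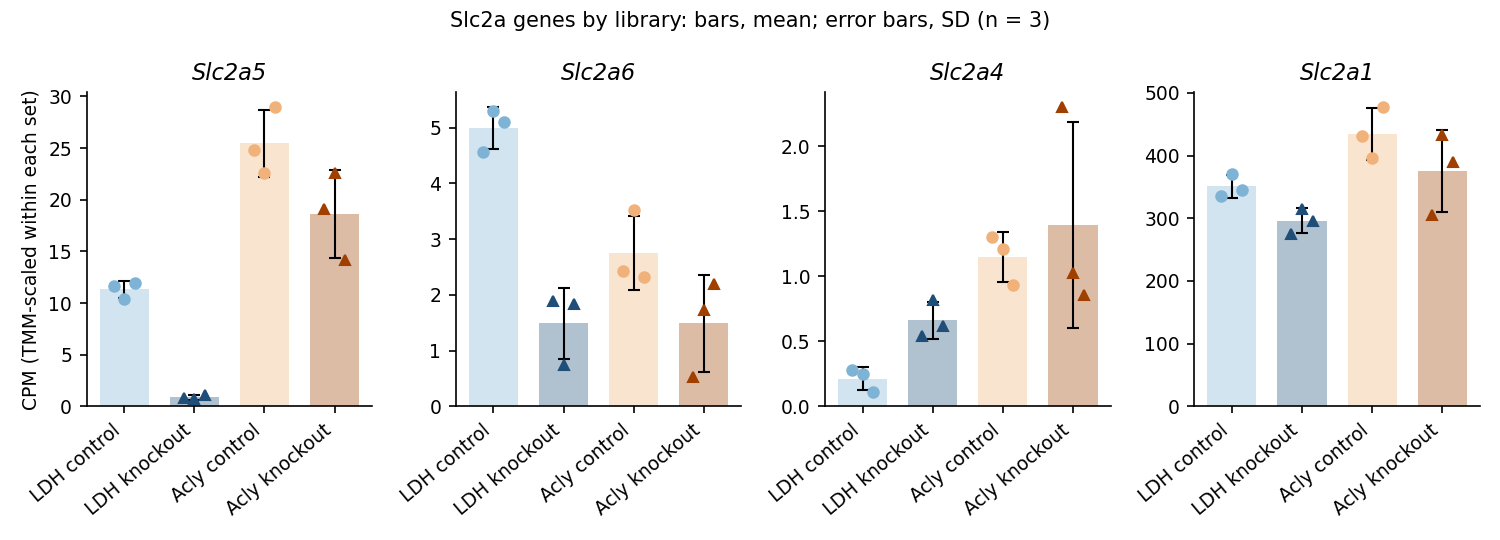
CPM of Slc2a5, Slc2a6, Slc2a4 and Slc2a1 by group, scaled within each set of 6 libraries, with points for libraries, bars for group means and error bars for the SD (n = 3). The LDH knockout points of Slc2a5 lie at 0.745 to 1.13 CPM, below the 10.4 to 11.98 CPM of their controls.

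Other measures also differed between the groups of the LDH set, and some of them between the groups of the Acly set. The 10 chondrocyte markers summed to 9981 to 11554 CPM in LDH controls and 18144 to 27467 CPM in LDH knockouts, with 6 of 9 tested called higher by edgeR. The 8 markers of bone-forming cells summed to 56.2 to 76.0 CPM in controls and 12.2 to 27.6 CPM in knockouts, with 2 of 4 tested called lower, Bglap2 and Sp7, and with Mepe at 0 and Dmp1 at 3 counts or fewer in each of these 6 libraries. The 5 hypertrophic chondrocyte markers summed to 6319 to 8804 CPM in controls and 2667 to 4876 CPM in knockouts, with Spp1 called lower and Col10a1 called higher. The 7 osteoclast markers summed to 109 to 128 CPM in controls and 83.5 to 105 CPM in knockouts, with Calcr at 0 and Ocstamp and Dcstamp at 3 counts or fewer. In the Acly set chondrocyte markers also rose, from 8479 to 9273 CPM in controls to 14234 to 17113 CPM in knockouts. Col2a1 and Comp were called higher there. Bone-forming cell markers of that set summed to 138 to 161 CPM in controls and 88.9 to 137 CPM in knockouts, with 0 of 5 tested called. The hypertrophic chondrocyte and osteoclast sums overlapped between the Acly groups. Macrophage markers of that set summed to 153.5 to 176.2 CPM in controls and 176.5 to 209.5 CPM in knockouts, with 0 of 9 tested called. The part of these cell types in the lower Slc2a5 and Slc2a6 of the LDH knockout was not tested. In the LDH set the 10 macrophage markers summed to 74.2 to 124 CPM in controls and 74.3 to 157 CPM in knockouts, and Cx3cr1 was at 3 counts or fewer. The 10 fat cell markers summed to 15.2 to 18.6 CPM in controls and to 62.0, 106 and 36.2 CPM in knockouts 1, 2 and 3, with 7 of 8 tested called higher and Lep at 3 counts or fewer. Slc2a4 was highest in LDH knockout 2 as well, at 0.820 CPM. Knockouts 1 and 3 had 0.545 and 0.622 CPM of Slc2a4, from 15 and 17 counts, which are too close to order these libraries. The 10 skeletal muscle markers summed to 9.92 to 18.2 CPM in controls and 11.1 to 18.3 CPM in knockouts, with Tnnt3 and Tnni2 called higher. The part of fat and muscle cells in the Slc2a4 values was not tested. Nerve and Schwann cell markers summed to 11.0 to 13.6 CPM in controls and 14.1 to 15.5 CPM in knockouts, and the sums for red blood cells, neutrophils, endothelial cells and platelets overlapped.

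LDH knockout libraries also lacked Y-linked signal, which LDH controls 1 and 2 had. LDH control 3, which was low in it, had 11.98 CPM of Slc2a5 and 5.11 CPM of Slc2a6, beside 11.7 and 10.4 CPM of Slc2a5 and 4.57 and 5.30 CPM of Slc2a6 in LDH controls 1 and 2. With the Y-linked signal as a covariate Slc2a5 kept its call (-3.77, adjusted p = 0.00348 by edgeR) and Slc2a6 lost it (-1.77, adjusted p = 0.197), in a fit that called 3 genes in all.

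The genes beside Slc2a5 in RefSeq's order did not pass the test in the LDH knockout. On one side lie H6pd, Gm13067 and Gpr157, with log2 differences of 0.30, 0.28 and -0.35, and on the other Slc2a7, too low to test, Car6 (0.08) and Eno1 (0.04), with adjusted p of 0.275 to 0.848 by edgeR. H6pd encodes an enzyme of the pentose phosphate route inside the endoplasmic reticulum, Car6 a carbonic anhydrase and Eno1 the glycolytic enolase. Groups did not overlap for 2 of these neighbours, Gpr157 and Gm13067, as for 24.3% of all genes tested. Gpr157 had 4.70 ± 0.50 CPM (SD, n = 3) in LDH controls and 3.68 ± 0.23 CPM in LDH knockouts, and Gm13067 had 2.03 ± 0.19 CPM and 2.46 ± 0.37 CPM.

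**Figure D3:**
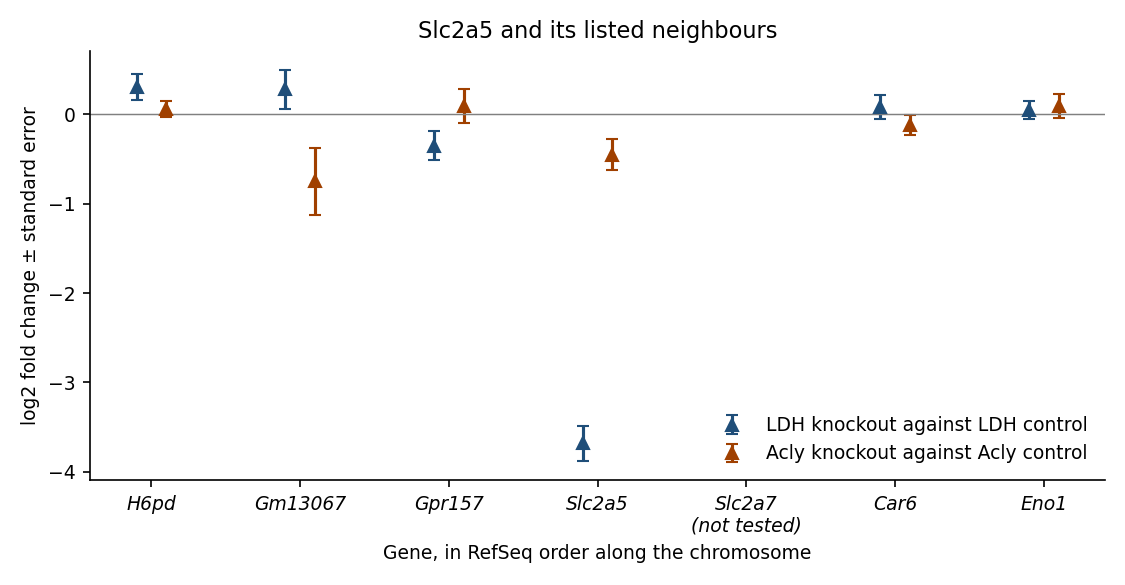
Log2 fold change with its standard error for Slc2a5 and its 3 listed neighbours on each side, in order along the chromosome, for both knockouts. Slc2a5 in the LDH knockout lies at -3.68, and the tested neighbours there between -0.35 and 0.30.

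In the Acly knockout none of the 10 genes passed the test. This was also so with DESeq2 and with limma, and 1 gene, Slc2a5, had an unadjusted p under 0.05 by edgeR, where 0.136% of 13973 genes tested passed after adjustment and 15.8% before it. Slc2a5 had 24.8, 22.5 and 29.0 CPM in Acly controls and 19.1, 22.6 and 14.2 CPM in Acly knockouts. Knockout replicate 2 reached the lowest control on this scale and the other 2 knockouts were lower. On FPKM all 3 knockouts were lower, at 5.59 to 8.19 against 9.15 to 11.46 FPKM in controls. The log2 difference was -0.45 (SE 0.18, 95% interval -0.85 to -0.05, adjusted p = 0.287 by edgeR). Without Acly knockout 2, the library that stood apart, it was -0.61 (adjusted p = 0.103 by edgeR), in a fit that called 132 genes and still none of the 10. With each of the 6 libraries left out in turn the difference ranged from -0.61 to -0.29 (adjusted p of 0.103 to 0.749 by edgeR) and was smallest without Acly knockout 3.

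Slc2a6 had 2.42, 3.52 and 2.32 CPM in Acly controls and 0.520, 1.74 and 2.20 CPM in Acly knockouts. The third knockout lay just under the lowest control and the first well under it. Its log2 difference of -0.89 (SE 0.44, 95% interval -1.89 to 0.11) had an adjusted p of 0.353 by edgeR. It was -0.48 without Acly knockout 1, within a range of -1.29 to -0.48 with 1 library left out, and -0.49 on log2(FPKM + 1). Slc2a12 had 0.820, 0.990 and 1.20 CPM in controls and 0.706, 0.710 and 0.411 CPM in knockouts, again without overlap, and a log2 difference of -0.72 (95% interval -1.51 to 0.08, adjusted p = 0.350 by edgeR). On CPM scaled within the set these were the 2 of 10 genes whose groups did not overlap, as for 22% of all genes tested. The count depended on the scale. On FPKM Slc2a12 overlapped (0.23 in the highest knockout, 0.22 in the lowest control). Slc2a1 (162.61 and 163.91), Slc2a5 (8.19 and 9.15) and Slc2a13 (1.81 and 1.91) did not. The share over all genes on FPKM was not counted. Slc2a12 rested on 81 counts in the controls and 48 in the knockouts.

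Slc2a1 had 431, 396 and 478 CPM in Acly controls and 304, 433 and 390 CPM in Acly knockouts. Knockout 1 was the lowest of the set and knockout 2 lay among the controls, for a log2 difference of -0.21 (SE 0.14, 95% interval -0.52 to 0.10, adjusted p = 0.447 by edgeR). It was -0.079 without knockout 1, -0.14 without control 3 and -0.32 without knockout 2. Slc2a4 had 1.30, 1.21 and 0.936 CPM in Acly controls and 2.30, 1.03 and 0.859 CPM in Acly knockouts. The log2 difference was 0.28 (95% interval -0.64 to 1.20) and turned to -0.29 without knockout 1. That library was its highest and was also highest for the summed fat cell markers (120 CPM, against 38.7 to 97.4 CPM in controls and 67.9 CPM in the lowest knockout). Control 2 had the lowest fat cell sum, 38.7 CPM, with 1.21 CPM of Slc2a4 (33 counts). Control 3 had a sum of 74.6 CPM with 0.936 CPM of Slc2a4 (25 counts). Muscle markers summed to 218 to 301 CPM in Acly controls and 91.3 to 242 CPM in knockouts. The part of fat and muscle cells in these Slc2a4 values was not tested.

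The remaining genes overlapped between Acly groups on CPM scaled within the set. For Slc2a13 the margin was small, 12.35 CPM in the highest knockout and 12.29 CPM in the lowest control. The log2 differences were 0.03 for Slc2a3, 0.30 for Slc2a8, -0.20 for Slc2a9, -0.10 for Slc2a10 and -0.23 for Slc2a13, with adjusted p of 0.391 to 0.932 by edgeR. The 95% interval of Slc2a3 was -0.29 to 0.35 and that of Slc2a10 was -0.38 to 0.18. The median over the 10 genes was -0.20, beside -0.0018 for all genes tested.

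**Figure D4:**
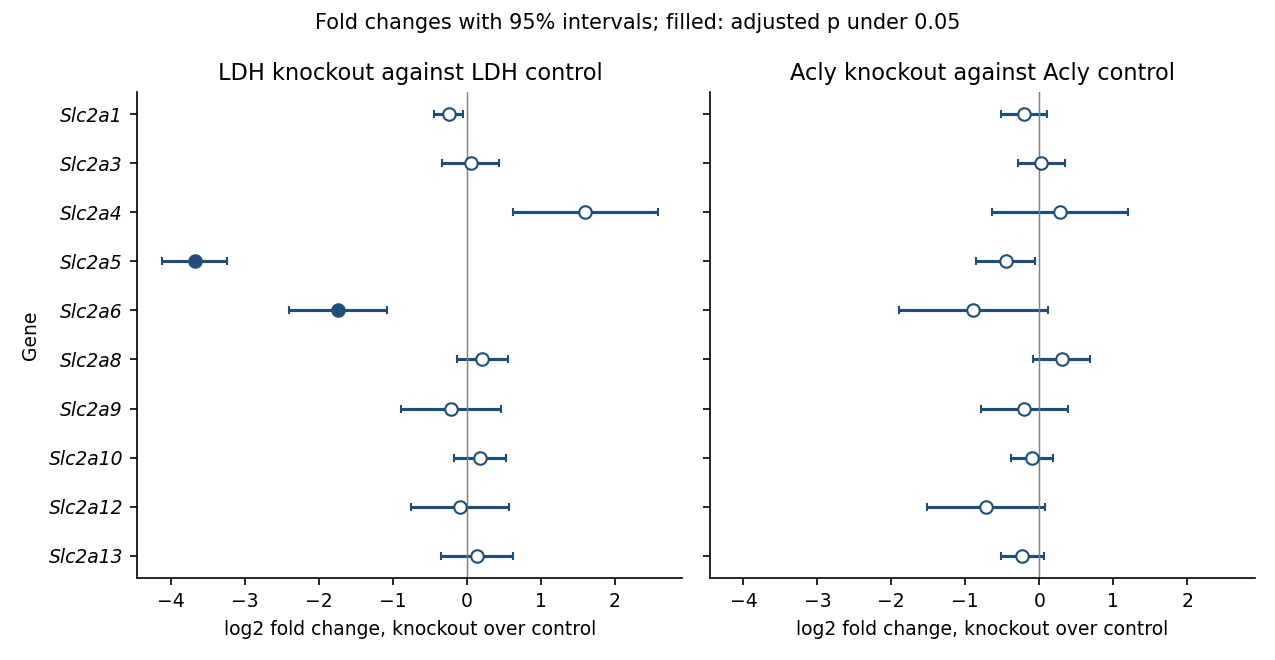
Log2 fold change with its 95% interval for the 10 Slc2a genes in each knockout against its own control, filled where the adjusted p is under 0.05. Slc2a5 at -3.68 and Slc2a6 at -1.74 in the LDH knockout are the 2 genes that passed the test.

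The effects of the LDH and Acly knockouts differed for 1 of the 10 genes, Slc2a5, where 0.161% of 14251 genes tested in the fit of all 12 libraries passed. For Slc2a5 the LDH effect was lower than the Acly effect by a log2 difference of -3.21 (SE 0.27, 95% interval -3.80 to -2.63), with an adjusted p of 1.38e-04 by edgeR. For Slc2a6, which passed in the LDH knockout and not in the Acly knockout, the difference of the effects was -0.83 (95% interval -2.09 to 0.42, adjusted p = 0.546 by edgeR). For Slc2a4 it was 1.33 (95% interval -0.03 to 2.69, adjusted p = 0.391 by edgeR) and for Slc2a1 -0.02 (95% interval -0.36 to 0.33). Deleted gene, age and set coincide in this comparison and cannot be told apart.

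The 2 control groups, at postnatal day 5 and embryonic day E18.5, differed for 5 of the 10 genes, where 55% of all genes tested passed, 29.4% upward and 25.7% downward. The inositol carrier Slc2a13 was higher in Acly controls by 1.39 on the log2 scale (SE 0.19, adjusted p = 4.40e-05 by edgeR), Slc2a5 by 1.01 (SE 0.17, adjusted p = 2.27e-04), Slc2a4 by 2.24 (SE 0.48, adjusted p = 0.00139) and Slc2a3 by 0.39 (SE 0.15, adjusted p = 0.0376). Slc2a6 was lower in Acly controls, by -1.01 (SE 0.39, adjusted p = 0.0417 by edgeR). Without scaling beyond total counts the median of all genes shifted to 0.19 from 0.02, Slc2a1 became called (0.33 in place of 0.15, adjusted p = 0.0180 by edgeR) and Slc2a6 lost its call (-0.83, adjusted p = 0.0909). The call of Slc2a3 was lost without filtering (adjusted p = 0.0627) and without any 1 control library other than LDH control 2 (adjusted p of 0.0724 to 0.113), and that of Slc2a6 without any 1 control library other than Acly control 2 (adjusted p of 0.0640 to 0.123 by edgeR). Muscle markers were far higher in Acly controls (218 to 301 CPM) than in LDH controls (9.92 to 18.2 CPM), as were fat cell markers (38.7 to 97.4 against 15.2 to 18.6 CPM), and their part in the Slc2a4 difference was not tested. Age, mouse line and any library batch cannot be told apart here.

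The genes that act around the carriers did not pass the test in either knockout. The lists held 71 genes for other sugar carriers, hexose phosphorylation, the fructose and polyol route, carrier trafficking, transcription factors and the handling of ascorbate, urate and inositol. Of these 69 were in the table, 53 were tested in the LDH and 52 in the Acly comparison, and edgeR called 0 in each, with 11 and 10 at an unadjusted p under 0.05, beside 19.6% and 15.8% of all genes tested. DESeq2 called Galk1 and Tkfc higher and G6pc3 lower in the LDH comparison, where it called 862 of 17181 genes, and none in the Acly comparison, and limma called 0 in each. The median log2 difference of the lists was -0.04 in each comparison. Tkfc, a kinase of fructose breakdown, had the lowest p in the LDH comparison (0.38, adjusted p = 0.0589 by edgeR), followed by the galactokinase Galk1 (0.42, adjusted p = 0.0714) and the glucose phosphatase G6pc3 (-0.27, adjusted p = 0.0869). Gulo, the last enzyme of vitamin C synthesis, had it in the Acly comparison (-0.76, adjusted p = 0.219 by edgeR), followed by the hypoxia factor Hif1a (-0.46, adjusted p = 0.230) and the ascorbate carrier Slc23a2 (-0.33, adjusted p = 0.244).

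Fructose kinase Khk, which acts on the substrate of Slc2a5, had 18.53 ± 2.3 CPM (SD, n = 3) in LDH controls and 15.6 ± 2.4 CPM in LDH knockouts, with overlap. Sord and Akr1b3, which make fructose from glucose by way of sorbitol, had log2 differences of -0.09 and -0.06 there (adjusted p of 0.874 and 0.772 by edgeR). Txnip, which promotes removal of GLUT1 from the surface, had 737 ± 104 CPM in LDH controls and 701 ± 141 CPM in LDH knockouts. Hif1a had 327 ± 50 CPM and 358 ± 42 CPM in the same groups. Knockout and control libraries of the LDH set overlapped for each of these 5 genes. In the Acly set Txnip had 612 ± 39 CPM in controls and 512 ± 44 CPM in knockouts, with every knockout lower (-0.26, adjusted p = 0.285 by edgeR), as were the Hif1a values. Between the control groups 27 of 54 list genes tested were called by edgeR, 16 higher and 11 lower in Acly controls, a share near the 55% of all genes. Khk was lower there (-1.03) and Sord higher (1.47), with adjusted p of 2.19e-04 and 7.47e-05 by edgeR.

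Likeness to a carrier over the 12 libraries was measured as the root mean square difference of log2 CPM after centring, over 12711 genes. For Slc2a1 the nearest 5 genes were Vmp1 (0.0912), Sec61a2 (0.107), Leprot (0.108), Uri1 (0.111) and Alg5 (0.113), where the median over all genes was 0.329 and Slc2a1 itself varied by 0.189. For Slc2a5 they were Ldha (0.515), Zfp984 (0.612), Bglap2 (0.812), Pgm5 (0.916) and Adamtsl1 (0.932), where the median was 1.85. Ldha is the gene deleted in the LDH knockout, with log2 differences of -3.29 and -0.09 in the LDH and Acly knockouts beside -3.68 and -0.45 for Slc2a5. Zfp984 and Bglap2 have close relatives in the genome, so their counts are uncertain.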

How the data were processed

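RNA of 12 samples was sequenced at BGI after poly(A) selection, per the labels' protocols. Reads were aligned with HISAT2 2.0.4 to mm9, per the submitters' processing notes. The counting program, annotation and use of strand are not given in the sources used here, so overlapping, antisense and near-identical genes are uncertain. The authors deposited expected counts, of which 7.32% to 8.16% per library are not whole, with FPKM and TPM, per the file headers. Their average columns were not used. Expected counts summed to 26362407 to 28154143 per library, which sets the floor of 3 counts.

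Expected counts were rounded and tested with edgeR 4.0.16 (R 4.3.3) using TMM scaling, filterByExpr and the two-sided quasi-likelihood test, with Benjamini-Hochberg adjustment over all tested genes and a threshold of 0.05. Knockouts were set against their own controls in fits of 6 samples. The difference of effects and the control comparison used all 12. CPM were scaled within a set of 6. Alternatives used DESeq2 1.42.0, limma 3.58.1 on log2(FPKM + 0.1) and log2(FPKM + 1), other scalings, no filter, a replicate block, a Y-linked covariate (4 genes) and each library left out. The fit was tested on simulated data.

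Named are the 10 Slc2a genes, the targeted genes, the 3 list genes of lowest p in each knockout comparison, any that passed, the 5 genes most like Slc2a1 and Slc2a5 (mean of at least 1 CPM) and 3 neighbours on each side of Slc2a5. Khk, Sord, Akr1b3, Txnip and Hif1a were added for their roles after their values were seen. The members and lists were chosen with earlier results of these data known. Of the Entrez identifiers, 17814 were found in RefSeq for GRCm38.p6, whose build differs from mm9, so coordinates are given only for RefSeq promoters.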

Additional observations from a re-analysis of the deposited data

Results flagged for a closer look

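The effect on Slc2a5 differed between the LDH and Acly knockouts. In the fit of all 12 libraries the difference of the log2 effects was -3.21 (95% interval -3.80 to -2.63, adjusted p = 1.38e-04 by edgeR). All 3 LDH knockout libraries lay below their controls. On CPM scaled over the 12 libraries all 3 Acly knockouts also lay below theirs, at 13.4 to 20.8 against 21.4 to 27.5 CPM. With CPM scaled within the Acly set, knockout 2 reached the lowest control. Deleted gene and age coincide here.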

How the results depend on the processing

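Of 610 alternatives for 40 gene results, 551 kept direction and side of the threshold, 16 lost a call, 5 gained one and 38 changed sign. Slc2a5 in the LDH knockout kept its call in its 15 alternatives (adjusted p 5.11e-46 to 0.00348 over edgeR, DESeq2 and limma). The causes of the other changes were not tested.

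Replicate numbers showed no pairing of the samples. For this each group's mean log2 CPM was subtracted gene by gene, and what remained was correlated between the same-numbered knockout and control libraries. The correlations were 0.0491, -0.159 and 0.00619 in the LDH set and 0.0011, -0.215 and -0.222 in the Acly set. With the replicate block the genes called were 362 in the LDH comparison (332 without it), 8 in the Acly comparison (19 without it) and 5 for the difference of effects (23 without it). No call of an Slc2a gene changed under the block.

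Genes called in the LDH comparison were 862 with DESeq2, 3 with the Y-linked covariate, and 95 to 1068 with 1 library left out, fewest without LDH control 3 and most without LDH knockout 3. In the Acly comparison they were 11 without scaling (27.3% of them higher, against 42.1%), 253 with DESeq2, 32 with no filter, 31 with all 12 samples, 6 with the Y-linked covariate, and 0 to 132 with 1 library left out. The edgeR count was 0 without Acly control 1 or 3, where 2323 and 1008 genes had an unadjusted p under 0.05, and 132 without Acly knockout 2. For the difference of effects they were 217 with DESeq2 and 5 to 143 with 1 library left out. Between control groups they were 6705 to 7127 with 1 library left out, against 7844, and 72.4% were higher without scaling, against 53.3%. Slc2a genes called in the LDH comparison were 1 with the Y-linked covariate and 1 to 2 with 1 library left out, 1 without LDH control 2 or 3. In the Acly comparison they were 0 throughout, for the difference 1 throughout, and between controls 3 to 4 with 1 library left out, 3 without LDH control 3, Acly control 1 or Acly control 3.

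Changes of sign fell on differences that had not passed the test. With the Y-linked covariate Slc2a9 and Slc2a12 in the LDH knockout were at 0.062 and 0.056. Slc2a12 there was 0.020 on log2(FPKM + 0.1) and 0.0019 on log2(FPKM + 1). Slc2a3 in the Acly knockout was -0.022 without scaling and -0.039 and -0.025 on these FPKM scales. For the difference of effects Slc2a1 was 0.0030 without scaling and 0.012 and 0.013 on the FPKM scales, and Slc2a9 was -0.030 with median-of-ratios factors and with DESeq2. Between controls Slc2a12 was 0.046 without scaling and 0.032 and 0.0082 on the FPKM scales. With 1 library left out, the LDH difference ranged from -0.048 to 0.14 for Slc2a3, -0.36 to 0.080 for Slc2a9, -0.22 to 0.10 for Slc2a12 and -0.048 to 0.29 for Slc2a13. The Acly difference ranged from -0.0026 to 0.050 for Slc2a3 and -0.29 to 0.54 for Slc2a4. The difference of effects ranged from -0.14 to 0.080 for Slc2a1, -0.062 to 0.12 for Slc2a3, -0.20 to 0.066 for Slc2a8 and -0.17 to 0.30 for Slc2a9, and the control difference of Slc2a12 from -0.27 to 0.038. Depth limits Slc2a4, with 3 to 62 counts per library, and Slc2a12, with 11 to 35.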
